A study of Mus musculus with 4 samples.

Results

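The genes described here encode the proteasome, its activators, its inhibitor and the chaperones that build it. Members were all genes whose GRCm38 symbol is Psm, a letter from a to g and a number, which gave 48 of the 55421 gene identifiers counted. Expression alone was measured, by RNA sequencing of total RNA from wild-type (WT) C57BL/6 mice, an inbred laboratory strain. The diets were normal chow (NCD) and high fat (HFD), with 2 libraries each, and the diet is the only labelled difference between the groups. The labels name all 4 libraries as macrophages of the islet, the endocrine tissue of the pancreas. No source used here gives the age of the mice, the time on the diet, whether animals were pooled or how macrophages were separated.

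The libraries held 56740720 to 64490097 counts each. The 10 macrophage markers checked were all counted in every library, at a sum of 865 to 972 CPM (counts scaled to the library total), but 10 beta cell markers summed to 13676 to 18079 CPM in the same libraries. In bulk RNA of this kind, fewer cells of a type and less RNA per cell cannot be told apart. Whether replicates are separate animals is not labelled, so the p-values cover only the spread of these libraries, which may be technical.

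The proteasome is the protease that degrades ubiquitin-tagged proteins. Its barrel-shaped core has outer rings of alpha subunits and inner rings of beta subunits, and a regulatory particle of ATPases and other subunits caps the barrel, binds the substrate and unfolds it. Cells exposed to interferon gamma, and leukocytes without it, replace the 3 proteolytic beta subunits Psmb5, Psmb6 and Psmb7 by Psmb8, Psmb9 and Psmb10 to form the immunoproteasome, whose cleavage favours peptides that bind MHC class I molecules. Beta cells make immunoproteasome subunits when they meet inflammatory cytokines.

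The diets differed in few of these genes and by small amounts. Of the 48 members, 47 had enough counts to be tested, and Psmb11 had not. Of the 47, 4 were called higher on HFD (Psmb8, Psmb9, Psmd1 and Psmd8) and 5 lower (Psmc2, Psmc5, Psmf1, Psmg1 and Psmg2), by edgeR's quasi-likelihood test at a Benjamini-Hochberg adjusted p under 0.05. That is 19.1% of the members tested, beside 32.4% of all 21563 genes tested (17.9% higher and 14.5% lower). The median log2 change of the members was 0.02 and the median size of the change, regardless of sign, was 0.10, beside 0.00 and 0.37 over all genes tested. The libraries of the diets did not overlap in 28 of the 47 members (59.6%), beside 67.7% of all genes tested. Changes of over 1.5-fold were found in 3 members (6.38%) and in 34.5% of all genes tested. Among the 9668 genes at 14.2 to 264 CPM, the range that the members above 5 CPM span, 44.5% were called, 18.1% changed by over 1.5-fold, and the median size of the change was 0.25. With DESeq2's Wald test 8 members were higher and 6 lower, beside 42.9% of all genes called. When any 1 library was left out, fewer members were called in each direction, and so were fewer of all genes tested. Psmb8 and Psmg2 were called without any 1 of the 4 libraries.

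**Figure D1:**
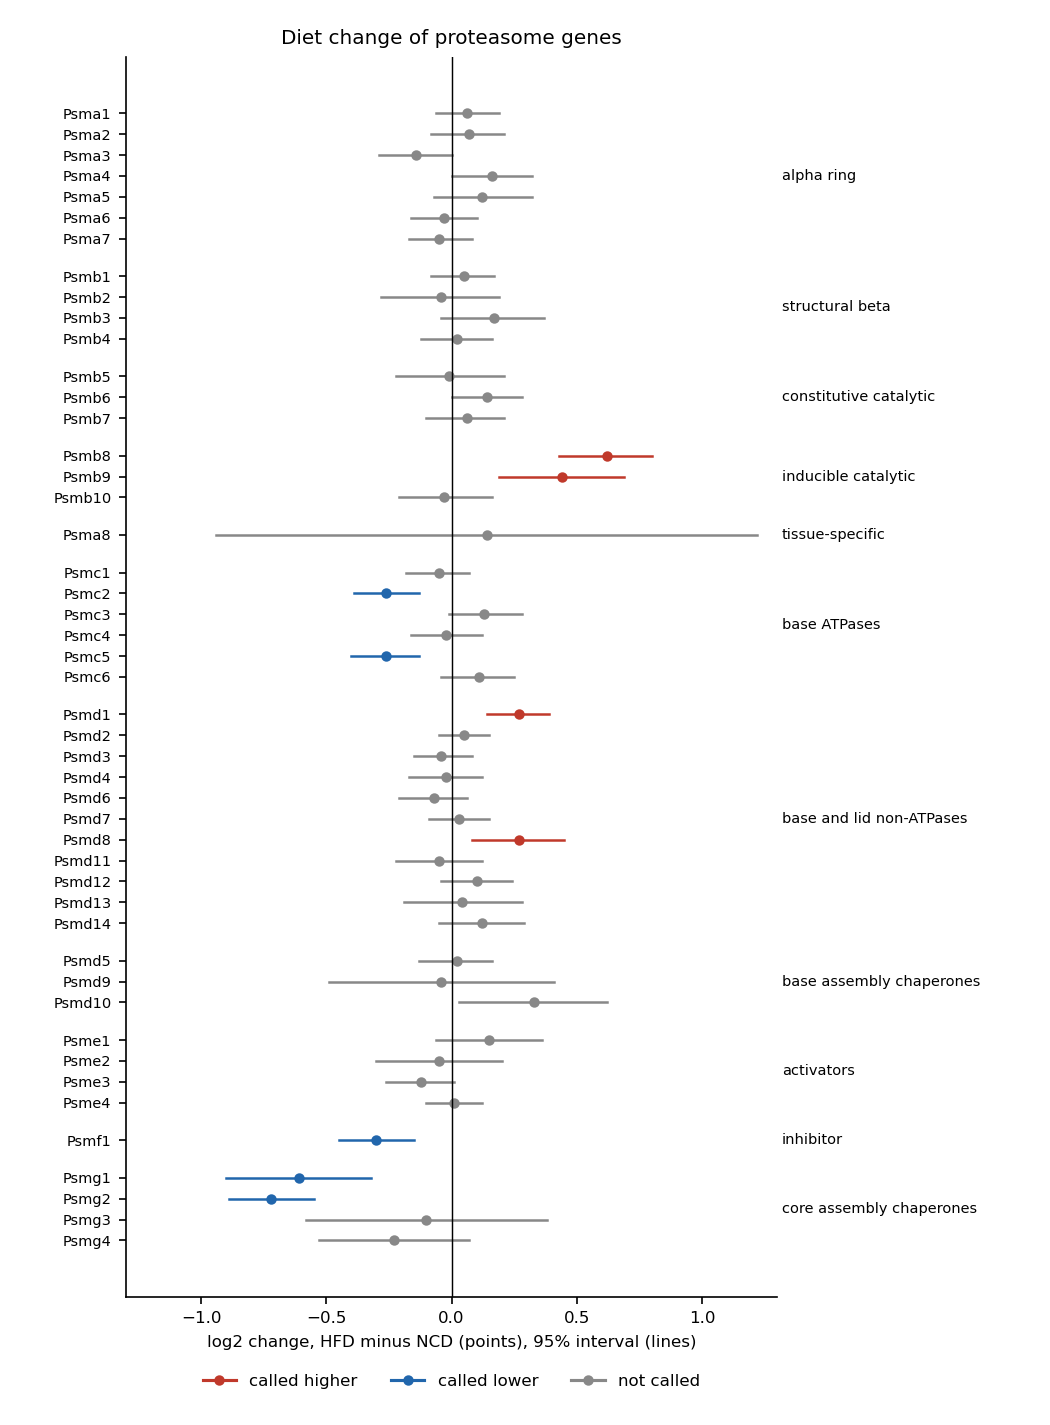
Log2 change (HFD minus NCD) of the 47 members tested, by role, with points for the estimate and lines for its 95% interval from edgeR's fit over 2 libraries per diet. Psmb8 and Psmb9 (red) stand to the right and Psmg1 and Psmg2 (blue) to the left, at 0.62, 0.44, -0.61 and -0.72, while the subunits of the core rings lie between -0.14 and 0.17.

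Summed over all 48 members, the libraries held 4506 and 4611 CPM on chow and 4573 and 4599 CPM on HFD, so that the diets overlapped. The 14 constitutive core subunits summed to 1401 and 1458 CPM on chow and to 1450.4 and 1479.8 CPM on HFD. The 17 subunits of the regulatory particle summed to 2271 and 2292 CPM on chow and to 2292 and 2301 CPM on HFD. The members also varied less between replicates than all genes tested, which include many genes at lower counts. No comparison with genes in the members' CPM range was made for this spread. The median difference between the libraries of a diet was 0.0741 on the log2 scale on chow and 0.0534 on HFD for the members, beside 0.149 and 0.151 over all genes tested.

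Per length of transcript, the inducible catalytic subunits stood low next to the constitutive core. The median of the constitutive core subunits was 85.8 CPM per kb on chow and 90.8 on HFD, and that of the regulatory particle subunits 72.3 and 71.4 CPM per kb. Within the core, Psma3 was lowest, at 33.7 CPM per kb on chow, and Psmb4, a structural beta subunit, highest, at 147. The inducible catalytic subunits lay below all constitutive core subunits on chow except Psma3, from 14.2 CPM per kb for Psmb9 to 35.9 for Psmb10. The place of Psmb10 in this order depends on the principal transcript as length. All annotated exons of Psmb1 and Psmb7 span 4595 and 3421 bases, beside principal transcripts of 1758 and 1160 bases. The Psma3 level is uncertain, since a processed pseudogene matching 100% of 665 bases of its transcript held a further 39.4% of its count.

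**Figure D2:**
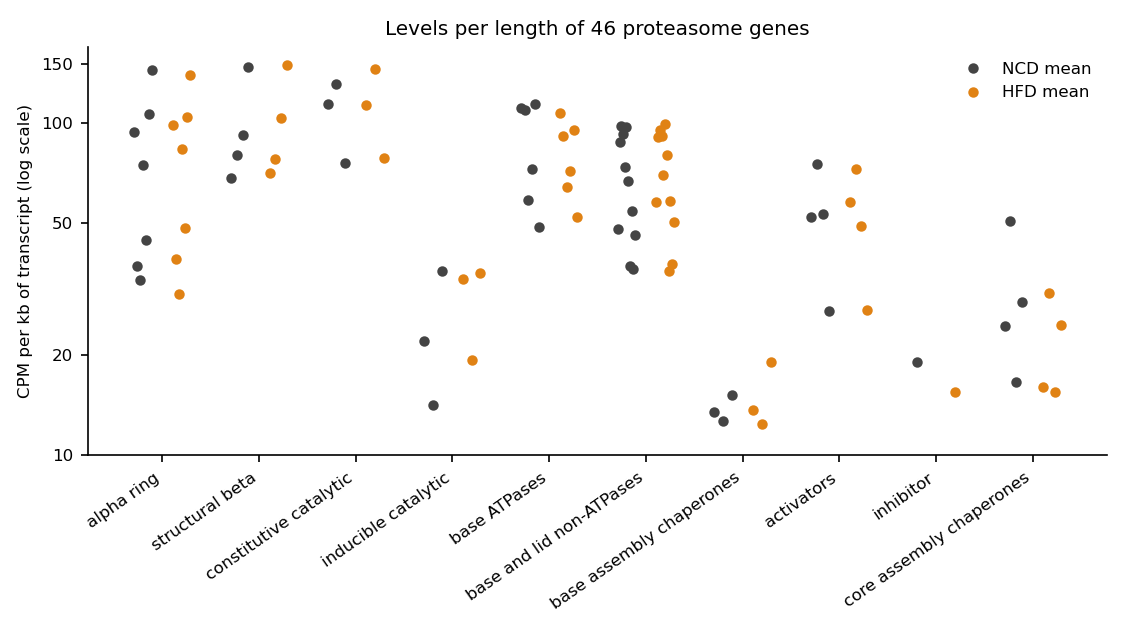
Mean level of 46 members in each diet, in CPM per kb of the principal protein-coding transcript on a log axis, by role. Points of the constitutive core and regulatory particle lie between 30.6 and 149 CPM per kb in both diets, and the inducible catalytic subunits and the base assembly chaperones (12.4 to 19.1) lie low. The tissue-specific Psma8 and Psmb11, both under 0.5 CPM per kb, are not shown.

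The question for the catalytic subunits was whether the inducible ones moved apart from the constitutive ones. Psmb8 and Psmb9 rose on HFD, by 1.53-fold and 1.36-fold, while Psmb10 and the 3 constitutive subunits did not pass the test. Psmb8, the subunit that replaces Psmb5 and carries the chymotrypsin-like activity (chromosome 17, 34197721 to 34201454, plus strand, GRCm38), stood at 34.6 and 37.2 CPM on chow and at 56 and 54.1 CPM on HFD. Both HFD libraries lay above both NCD libraries, and the log2 change was 0.62 ± 0.072 (SE; edgeR adjusted p = 0.00251). The call held under all 13 alternative settings. An antisense gene, Gm20496, shares 498 exonic bases with Psmb8 and had 0 to 4 counts in each library.

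Psmb9, which replaces Psmb6 (chromosome 17, 34181987 to 34187764, minus strand), stood at 18.6 and 19.8 CPM on chow and at 24.6 and 27.4 CPM on HFD. The diets did not overlap, and the log2 change was 0.44 ± 0.10 (SE; edgeR adjusted p = 0.0238). This call was lost on leaving out either NCD library or HFD replicate 2 (adjusted p by edgeR = 0.0954, 0.0584 and 0.116). Psmb9 shares 212 exonic bases, 5.79% of its exonic length, with the peptide transporter gene Tap1 on the opposite strand. No source used here gives the strand setting of the counting, so reads in that stretch cannot be told apart.

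Psmb10, which replaces Psmb7 and carries the trypsin-like activity (chromosome 8, 105935735 to 105938444, minus strand), stood at 45.8 and 48.3 CPM on chow and at 44.6 and 47.8 CPM on HFD. The diets overlapped, and the 95% interval of the log2 change ran from -0.21 to 0.16 (edgeR adjusted p = 0.831). That interval lies below the one of Psmb8, from 0.43 to 0.80. Of the inducible subunits, Psmb10 thus had the highest mean level per length in both diets and no called change. On HFD its mean lay close to that of Psmb8, at 35.3 and 33.8 CPM per kb.

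Among the constitutive catalytic subunits, Psmb5 (chromosome 14, 54614119 to 54618022, minus strand) stood at 99.9 and 105 CPM on chow and at 94 and 109.6 CPM on HFD. The HFD libraries lay on either side of the NCD ones, with a 95% interval of the log2 change from -0.22 to 0.21. Psmb6, the caspase-like subunit, stood at 103 and 107 CPM on chow and at 113 and 119 CPM on HFD. Its diets did not overlap, but its log2 change of 0.14 did not pass (edgeR adjusted p = 0.117), although DESeq2 called it higher (DESeq2 adjusted p = 0.0202), as did edgeR at a mean of at least 5 CPM (adjusted p = 0.0365). Psmb7, the trypsin-like subunit, stood at 90.7 and 84.3 CPM on chow and at 92.6 and 89.4 CPM on HFD, with overlapping diets and a 95% interval from -0.10 to 0.21. Psmb7 shares 405 exonic bases, 11.8% of its exonic length, with Nek6 on the opposite strand, which had 1788 and 1768 counts on chow and 2896 and 2580 counts on HFD, so the Psmb7 level and the ratio to it are uncertain.

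**Figure D3:**
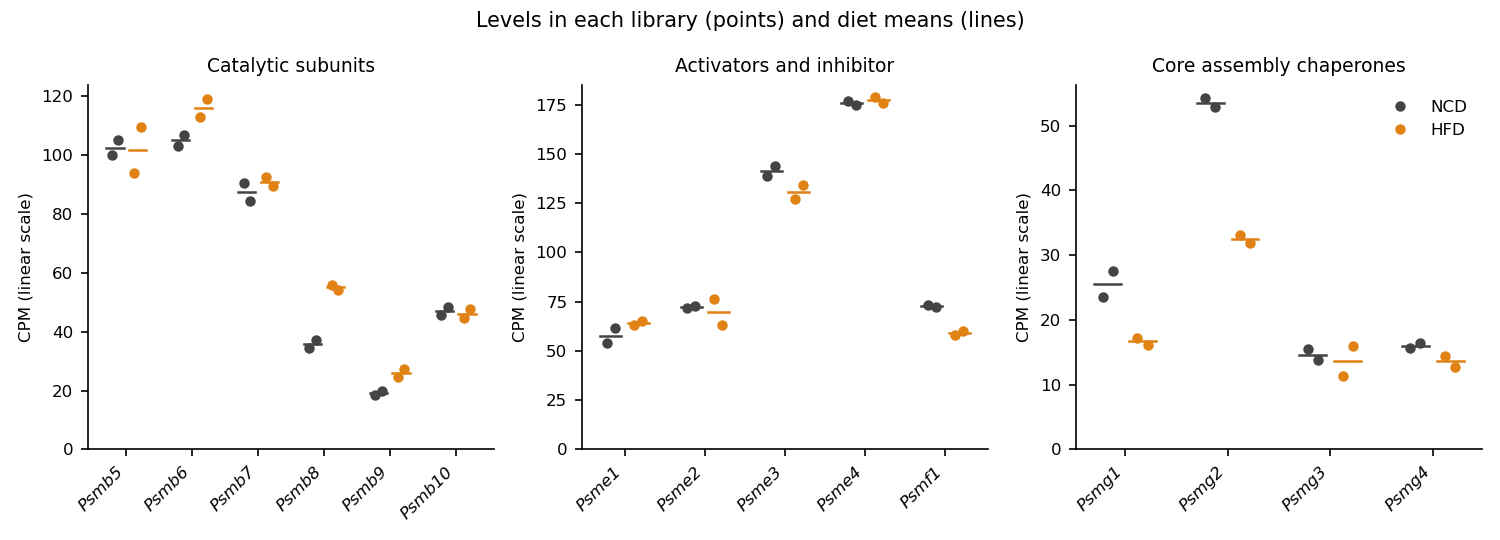
Level of the catalytic subunits, activators, inhibitor and core assembly chaperones in each library, in CPM on a linear axis from 0, with points for the 2 libraries of each diet and lines for their mean. The HFD points of Psmb8 (56 and 54.1) and Psmb9 (24.6 and 27.4) lie above the NCD points and those of Psmf1, Psmg1 and Psmg2 below, whereas those of Psmb5, Psmb7, Psmb10, Psme2, Psme4 and Psmg3 overlap.

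A ratio within a library does not depend on how libraries are scaled to each other. Per length of transcript, Psmb8 stood at 0.191 and 0.196 of Psmb5 on chow and at 0.329 and 0.272 on HFD, a 1.54-fold higher ratio. Psmb9 stood at 0.107 and 0.109 of Psmb6 on chow and at 0.129 and 0.136 on HFD, a 1.23-fold higher ratio. For both pairs the HFD libraries lay above the NCD libraries. Psmb10 stood at 0.447 and 0.506 of Psmb7 on chow and at 0.427 and 0.473 on HFD, and here the diets overlapped. The mean log2 ratio over the 3 pairs was -2.22 ± 0.0588 (SD, n = 2) on chow and -1.94 ± 0.00993 on HFD, a difference of 0.28. No test was run on these ratios, since an exact permutation test of 2 against 2 libraries cannot go below a two-sided p of 0.333. Per length of the principal transcript, the constitutive subunit was the more abundant in each library and for each pair. For Psmb10 and Psmb7 that order depends on the length used. All annotated exons span 1705 bases in Psmb10 and 3421 in Psmb7, beside principal transcripts of 1311 and 1160 bases.

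Bases before the RefSeq transcript starts of these genes are shown because the catalytic subunits come in pairs that answer to different regulators in textbook accounts, the inducible genes to interferon-activated factors and the constitutive ones to the stress-activated factors Nfe2l1 and Nfe2l2. The 250 bases before the RefSeq transcript start were searched on both strands for 4 motifs, and matches are in capitals. These were the interferon-stimulated response element (GAAA, any 2 bases, GAAA), the gamma-activated site TTCNNNGAA, the antioxidant response element core TGACNNNGC and the CCAAT box. In the windows printed, no match overlapped another. For Psmb8 and Psmb9 only 30 bases are given, since the window lies within the gene, in annotated exons of transcripts that start further upstream. Both are on chromosome 17, at chr17:34198087-34198116 (plus strand) and chr17:34187331-34187360 (minus strand) of GRCm38.p6. The stretches of Psmb5 and Psmb6 are chr14:54618023-54618245 (minus strand) and chr11:70525107-70525356 (plus strand).
Psmb8: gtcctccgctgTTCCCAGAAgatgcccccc
Psmb9: cctgcaccgcgcgcagccgctgATTGGaaa
Psmb5: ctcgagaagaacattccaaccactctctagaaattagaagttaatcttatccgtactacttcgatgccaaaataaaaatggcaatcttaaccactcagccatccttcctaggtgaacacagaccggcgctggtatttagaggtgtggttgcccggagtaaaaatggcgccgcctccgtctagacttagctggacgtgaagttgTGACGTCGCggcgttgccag
Psmb6: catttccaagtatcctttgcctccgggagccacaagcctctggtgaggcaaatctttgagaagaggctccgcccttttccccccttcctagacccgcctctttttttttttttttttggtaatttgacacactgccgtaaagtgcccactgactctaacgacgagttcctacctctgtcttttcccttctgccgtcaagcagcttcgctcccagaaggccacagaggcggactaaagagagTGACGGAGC

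The Psmb8 stretch holds a gamma-activated site that begins 97 bases before the transcript start. Psmb5 and Psmb6 each hold an antioxidant response element core, beginning 47 and 9 bases before the start. Psmb9 holds the CCAAT box in reverse orientation, beginning 8 bases before its start. The starts of Psmb9 and Tap1, which is read in the other direction, lie 226 bases apart. The window of Psmb10 held none of the 4 motifs. Of 32851 windows of all genes, 7.02% held the gamma-activated site, 10.2% the antioxidant response element core, 2.98% the interferon-stimulated response element and 33.8% the CCAAT box. Among the 43 windows of the 40 members in the RefSeq table, 2, 5, 3 and 14 windows held them, or 4.65%, 11.6%, 6.98% and 32.6%. The gamma-activated site was in Psmb8 and in Psmg1, which fell on HFD. The interferon-stimulated response element was in the windows of Psmb3, Psmd4 and Psmd9, and in no window of an inducible subunit. Since the windows of Psmb8 and Psmb9 lie within the gene, they do not cover the bases before the transcripts that start further upstream. The antioxidant response element core was in Psmc6, Psmd12 and Psmd9 besides Psmb5 and Psmb6. A match describes the letters in the window and is no evidence of binding.

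Markers of leukocytes rose beside Psmb8 and Psmb9. All 6 leukocyte markers rose, and summed to 292 and 307 CPM on chow and to 677 and 649 CPM on HFD. All 7 B cell markers rose, from 558 and 556 CPM to 3695 and 3739 CPM, as did 6 of 7 tested T and NK cell markers of 8, from 4.42 and 3.22 CPM to 41.7 and 40.9 CPM, with Klrb1c at 0 on chow. Macrophage markers did not share this pattern, since 3 of 10 rose and 5 fell, and their sum was 972 and 942 CPM on chow and 865 and 869 CPM on HFD. Set against the leukocyte marker sum, Psmb8 stood at 0.118 and 0.121 on chow and at 0.0828 and 0.0831 on HFD. Psmb9 went from 0.0635 and 0.0645 to 0.0364 and 0.0422 on that measure, and Psmb10 from 0.157 in both NCD libraries to 0.066 and 0.0735. The marker sum rose by more than any of the 3 inducible subunits, so all 3 were lower on HFD per leukocyte marker count, without overlap. A gene without a diet change also falls on that measure, so the fall is not particular to these subunits. Other markers moved with them as well. All 8 acinar markers rose, from a sum of 446 and 462 CPM to 2939.9 and 3489 CPM, and all 7 fibroblast markers, from 118 CPM in both chow libraries to 1229 and 1259.9 CPM. Of 5 alpha cell markers 3 rose and none fell, and of 6 endothelial markers 3 rose and 2 fell. The part of leukocyte and other cell types in the rise of Psmb8 and Psmb9 was not tested.

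**Figure D4:**
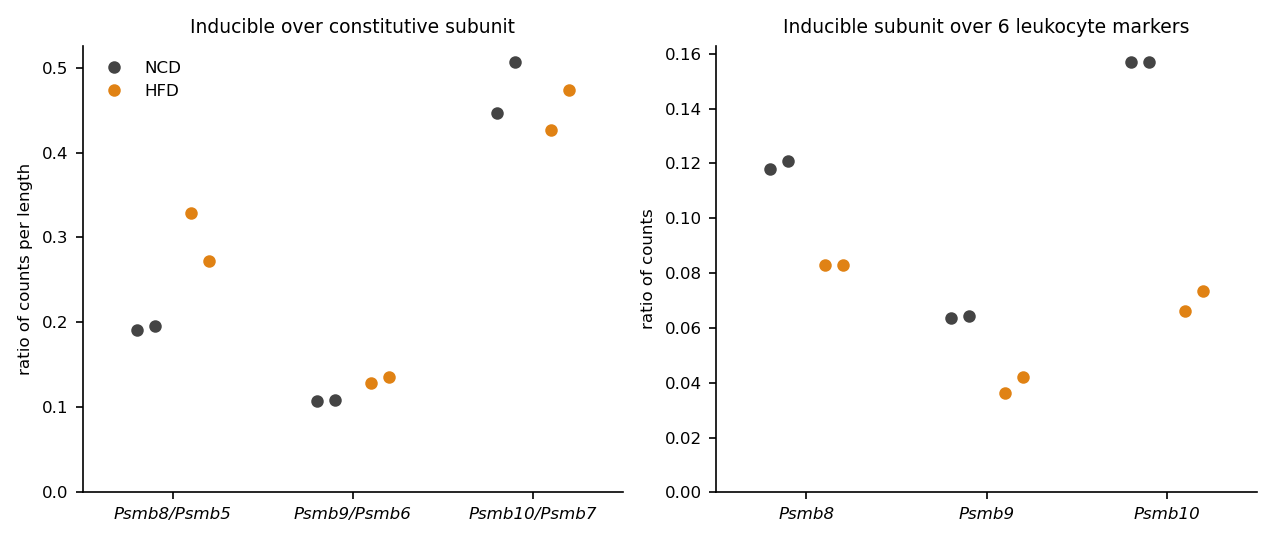
Ratios within each library, on linear axes from 0, with points for the 2 libraries of each diet: at left the inducible over the constitutive subunit of each catalytic pair (counts per length), at right each inducible subunit over the summed counts of 6 leukocyte markers. The HFD points of Psmb8/Psmb5 (0.329 and 0.272) lie above the NCD points, and those of Psmb10/Psmb7 overlap. All 3 subunits lie lower on HFD per leukocyte marker count, as would any gene that rose less than the marker sum.

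None of the activators was called. Psme1 and Psme2 encode the alpha and beta chains of the interferon-inducible activator PA28, which opens the core for peptides without ubiquitin. Psme1 stood at 54 and 61.6 CPM on chow and at 63.2 and 65.2 CPM on HFD, with the HFD libraries higher and a log2 change of 0.15 (95% interval -0.06 to 0.36, edgeR adjusted p = 0.231). Psme2 stood at 71.7 and 73 CPM on chow and at 76.4 and 63.4 CPM on HFD, and its HFD libraries enclosed the NCD ones. Its count is uncertain, because the gene Psme2b on chromosome 11 matches 99.4% of 794 bases of its transcript and held 53.7% as many counts. With both genes added, the libraries stood at 104 and 115 CPM on chow and 110 and 110 CPM on HFD, which again overlapped.

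The other activators are nuclear. Psme3, the gamma chain that forms an activator of its own, stood at 139 and 144 CPM on chow and at 127 and 134 CPM on HFD, lower in both HFD libraries but not called (edgeR adjusted p = 0.152). Psme4, encoding the large activator PA200, stood at 177 and 175 CPM on chow and at 179 and 176 CPM on HFD, overlapping, with a 95% interval of the log2 change from -0.10 to 0.12. Psmf1 encodes PI31, named for its inhibition of the core in vitro and also known as an adaptor for proteasome transport. It fell from 73.2 and 72.5 CPM to 58.1 and 60.2 CPM, without overlap (log2 change -0.30 ± 0.059 (SE), edgeR adjusted p = 0.014). The call was lost on leaving out NCD replicate 1 or HFD replicate 1 (adjusted p by edgeR = 0.0641 and 0.0746).

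Psmg2 had the largest change of the members tested, a fall, and Psmg1 fell by about as much as Psmb8 rose. Psmg1 and Psmg2 encode the partners of a heterodimer on which the alpha ring is built, and Psmg3 and Psmg4 those of another that acts on the same ring. Psmg2 stood at 54.2 and 52.9 CPM on chow and at 33.1 and 31.9 CPM on HFD. The diets were far apart next to the spread of replicates, with a log2 change of -0.72 ± 0.067 (SE; edgeR adjusted p = 0.00115). Psmg1 stood at 23.5 and 27.6 CPM on chow and at 17.2 and 16.2 CPM on HFD, without overlap (log2 change -0.61 ± 0.12 (SE), edgeR adjusted p = 0.0128). Without HFD replicate 2 the Psmg1 call was lost (edgeR adjusted p = 0.0584). The counts of Psmg1 were 0.433 and 0.522 of those of Psmg2 on chow and 0.52 and 0.509 on HFD, so the ratio of the partners overlapped between the diets.

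The second heterodimer was not called. Psmg3 stood at 15.5 and 13.8 CPM on chow and at 11.3 and 16 CPM on HFD, and its 95% interval was wide, from -0.58 to 0.38 on the log2 scale. Psmg4 stood at 15.6 and 16.4 CPM on chow and at 14.5 and 12.8 CPM on HFD, lower in both HFD libraries (log2 change -0.23, edgeR adjusted p = 0.215). Pomp, the maturation factor that works after these chaperones and is not a member, stood at 65.2 and 71.4 CPM on chow and at 68.9 and 73.3 CPM on HFD, which overlapped. Beta cell markers fell beside Psmg1 and Psmg2. Of 10 such markers 8 fell and none rose, and their sum went from 17602 and 18079 CPM to 13676 and 14271 CPM. Their part in the fall of Psmg1 and Psmg2 was not tested.

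No subunit of the structural core was called by edgeR. All 7 alpha subunits, Psma1 to Psma7, had log2 changes between -0.14 and 0.16, and the 4 structural beta subunits, Psmb1 to Psmb4, between -0.04 and 0.17. Psmb3 had the largest change of the 14 constitutive core subunits, standing at 65.7 and 74.8 CPM on chow and at 76.7 and 80.9 CPM on HFD (95% interval of the log2 change -0.04 to 0.37). Psma4 was higher in both HFD libraries, from 83.4 and 90.7 CPM to 96.6 and 97.9 CPM (edgeR adjusted p = 0.115), and it was called with DESeq2 (adjusted p = 0.0217) and with edgeR at a mean of at least 5 CPM (adjusted p = 0.0413). Psma3 was lower in both HFD libraries, from 93.4 and 98.6 CPM to 88.1 and 85.9 CPM (edgeR adjusted p = 0.123), and it was called with DESeq2 (adjusted p = 0.0461). With the counts of its near-identical copies added, Psma3 had a log2 change of -0.18 and passed (edgeR adjusted p = 0.0477). These copies include the protein-coding gene Gm609, which matches 96.3% of 327 bases. Gm609 had 1057 and 1062 counts on chow and 804 and 606 on HFD, so the added counts need not be Psma3 reads.

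In the regulatory particle, 2 ATPases fell and 2 other subunits rose, with log2 changes of 0.27 or less in size. That is 4 of 17 subunits called (23.5%), a smaller share than the 32.4% of all genes tested. Psmc2 and Psmc5 are part of the ring of 6 ATPases, Psmc1 to Psmc6, that unfolds the substrate. Psmc2 fell from 194 and 196 CPM to 158 and 168 CPM (log2 change -0.26 ± 0.051 (SE), edgeR adjusted p = 0.0144). Psmc5 fell from 146 and 154 CPM to 123 and 127 CPM (log2 change -0.26 ± 0.053 (SE), edgeR adjusted p = 0.0153). Neither overlapped between the diets, and the other 4 ATPases had log2 changes between -0.05 and 0.13 and were not called by edgeR. Of these, Psmc3 was called higher with DESeq2 (adjusted p = 0.0374) and with edgeR at a mean of at least 5 CPM (adjusted p = 0.0473). The Psmc2 call was lost on leaving out NCD replicate 1 or HFD replicate 1 (adjusted p by edgeR = 0.0512 and 0.0736) and the Psmc5 call on leaving out NCD replicate 2 or HFD replicate 1 (adjusted p by edgeR = 0.0633 and 0.0774).

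Of the 11 other subunits of the regulatory particle, Psmd1 and Psmd8 rose. Psmd1, a large scaffold subunit of the base, went from 146 and 152 CPM to 176 and 183 CPM (log2 change 0.27 ± 0.051 (SE), edgeR adjusted p = 0.0127). Psmd1 shares 252 exonic bases with Htr2b on the opposite strand, which had 91 to 173 counts in each library. Psmd8, a lid subunit, went from 106 and 98.7 CPM to 129.8 and 117 CPM (log2 change 0.27 ± 0.074 (SE), edgeR adjusted p = 0.0437). Neither overlapped, but the Psmd1 call was lost on leaving out NCD replicate 1 or HFD replicate 2 (adjusted p by edgeR = 0.0604 and 0.0658). That of Psmd8 was lost without the count filter (edgeR adjusted p = 0.062) and on leaving out either NCD library or HFD replicate 1 (adjusted p by edgeR = 0.0613, 0.166 and 0.155). The other 9, which include the deubiquitinase Psmd14, the ubiquitin receptor Psmd4 and Psmd2, a scaffold subunit of the base, had log2 changes between -0.07 and 0.12. Psmd2 stood at 257 and 262 CPM on chow and at 266 and 269.9 CPM on HFD.

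The chaperones of the base, Psmd5, Psmd9 and Psmd10, were not called. Psmd10, also known as gankyrin, had the largest change among them, from 23 and 20.4 CPM to 29.4 and 25.2 CPM, without overlap (log2 change 0.33, edgeR adjusted p = 0.0893; DESeq2 adjusted p = 0.0189). Psmd9 differed between the replicates of each diet, at 28.4 and 37.8 CPM on chow and 36.2 and 28.3 CPM on HFD. The tissue-specific subunits were near the limit of detection. Psma8, an alpha subunit of male germ cells, had 43 and 35 counts on chow and 40 and 40 counts on HFD. Psmb11, the catalytic subunit of thymic cortical epithelium, had 8 counts on HFD replicate 1 and 0 in the other libraries, below the floor of 12 counts per library, so its absence cannot be told from a level under that floor.

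Outside the Psm genes, the genes of interferon gamma signalling, which regulate the inducible subunits, were higher on HFD. All 8 tested genes of the interferon gamma list rose, beside 17.9% of all genes tested, with a median log2 change of 0.71, beside 0.00. Irf1, a transcription factor that induces Psmb9 and Tap1, rose from 53 and 53.1 CPM to 93.1 and 88.9 CPM (edgeR adjusted p = 0.000593). Nlrc5, the transactivator of MHC class I genes, rose from 14.5 and 16.6 CPM to 44.4 and 39.1 CPM (edgeR adjusted p = 0.000683). Ifng itself was not tested, with 0 counts in both NCD libraries and 8 and 4 on HFD. Beside these, the log2 change of Nlrc5 was 1.42 and those of Psmb8 and Psmb9 were 0.62 and 0.44, and Psmb10, Psme1 and Psme2 did not pass. The median log2 change was 1.24 for the leukocyte markers, 2.75 for the B cell markers and 3.39 for the T and NK cell markers, and their part in the rise of the interferon gamma list was not tested.

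**Figure D5:**
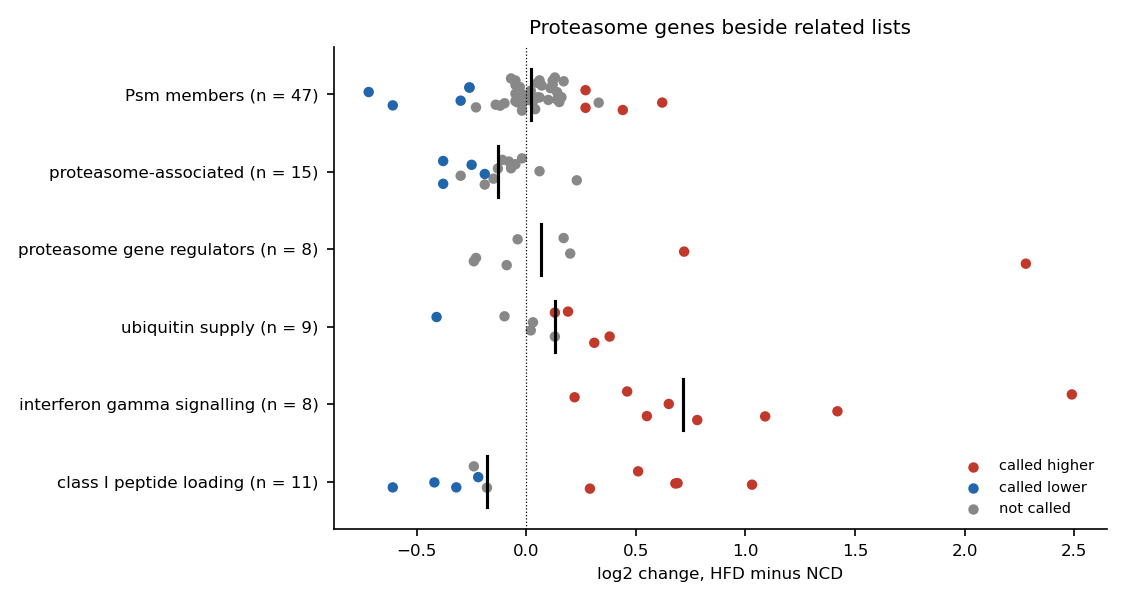
Log2 change (HFD minus NCD) of the Psm members and of 5 lists of related genes, 1 point per tested gene, with a black line at each list's median. The Psm members are centred at 0.02 and the interferon gamma list at 0.71, and class I loading genes fall on both sides of 0.

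Of the 11 genes of class I peptide loading, 5 rose and 4 fell, with a median log2 change of -0.18 but a mean of 0.11. The list had 81.8% of its genes called, beside 32.4% of all genes tested. Those that rose were Tap1, Tap2, B2m, H2-K1 and H2-D1, and those that fell were Erap1 and the endoplasmic reticulum chaperones Calr, Canx and Pdia3. Tap1, whose start lies beside that of Psmb9, rose from 29.7 and 28 CPM to 43.7 and 49.8 CPM (log2 change 0.69 ± 0.092 (SE), edgeR adjusted p = 0.00382). The counts of Psmb8 were 1.16 and 1.33 of those of Tap1 on chow and 1.28 and 1.09 on HFD, overlapping between the diets. Those of Psmb9 were 0.624 and 0.705 of Tap1 on chow and 0.563 and 0.551 on HFD, lower in both HFD libraries.

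Among 8 regulators of constitutive proteasome genes 2 rose, with a list median of 0.07. The share called was 25%, beside 32.4% of all genes tested. Nfe2l1, which restores proteasome gene expression when the proteasome is inhibited, stood at 188 and 184 CPM on chow and at 172 and 146 CPM on HFD (edgeR adjusted p = 0.101). Nfe2l2, the main factor of the antioxidant response, rose from 127 and 130.0 CPM to 209 and 215 CPM (log2 change 0.72 ± 0.046 (SE), edgeR adjusted p = 0.000369). Nfe2l3, a relative of both, rose from 0.667 and 1.45 CPM to 4.3 and 6 CPM (edgeR adjusted p = 0.0119, and 0.0512 without HFD replicate 2).

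Of the 15 tested proteasome-associated genes 4 fell and none rose, with a median log2 change of -0.13. That is 26.7% called, beside 32.4% of all genes tested. Txnl1, a thioredoxin-like protein bound to the regulatory particle, fell from 191 and 188 CPM to 151 and 140.5 CPM (edgeR adjusted p = 0.00539). The others were the ubiquitin ligase Ube3c, the shuttle factor Ubqln1 and the deubiquitinase Uchl5, each with a call that was lost without some library (edgeR adjusted p up to 0.0856, 0.111 and 0.172). Of 9 genes of ubiquitin supply and extraction, 4 rose, among them Uba1 and Vcp, and 1 fell (Ufd1), with a median log2 change of 0.13. Calls made up 55.6% of that list, beside 32.4% of all genes tested. Ubb, a polyubiquitin gene, stood at 941 and 972 CPM on chow and at 978 and 967 CPM on HFD. The Uba1 call was lost on leaving out NCD replicate 2 or HFD replicate 2 (adjusted p by edgeR = 0.106 and 0.128).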

How the data were processed

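Each of the 4 libraries had 1 table of whole-number counts per Ensembl gene, as deposited by the authors. The submitters' processing notes name HISAT, featureCounts 1.5.0, DESeq 1.8.3 and GRCm38, without roles. Per the labels' protocols the library kit was stranded. No source used here gives the strand or multi-mapping setting. Low counts were 1.519 to 1.572 times as frequent at multiples of 4 as beside them, so a floor of 12 counts per library was used, and floors cover counting error only. Symbols came from GENCODE M21 (GRCm38), which named 55154 identifiers. Psme2b, Psmc3ip and 4 pseudogenes have other suffixes and were left out.

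Counts were analysed in R 4.3.3 with edgeR 4.0.16 (filterByExpr, minimum count 10, TMM, quasi-likelihood F test, no replicate block, Benjamini-Hochberg over all genes). CPM use TMM-scaled library sizes, sums unscaled ones. Intervals of 95% come from the same fit. Levels per kb use the principal protein-coding transcript. Copies were found with blastn 2.17.0 (identity of at least 95% over 200 bases) in 9 members. Upstream bases are RefSeq's (GRCm38.p6). On simulated counts of this comparison, 0%, 22%, 52% and 88% of 50 genes each were recovered at 1.25, 1.5, 2 and 4-fold. The changed genes were drawn at random from genes at widely differing counts. These shares are therefore not those of the members, which varied less between replicates than all genes tested. False calls numbered 19 among 19198 genes. Any member could be named, and of each related list up to 4 genes with the smallest p; other genes of those lists (among them Tap1, Tap2, Canx, Erap1, Vcp, Ubb, Nfe2l1, Pomp and Ifng) were named after their values were seen. Members, lists and motifs were chosen with earlier results of these data known. Alternatives were DESeq2 1.42.0 (size factors, Wald test), limma-voom 3.58.1, other filters, a replicate block, other library sizes, counts divided by 4 and leaving out each library. Adding copies, the exon union as length and the ratios to leukocyte markers and to Tap1 were chosen after seeing the data. Some genes of the related lists are counted but not reported here by name.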

Additional observations from a re-analysis of the deposited data

How the results depend on the processing

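Members called higher numbered 8 with the DESeq2 Wald test and 7 with a mean of at least 5 CPM, against 4, and each of these sets held the same 4 genes; without a library they numbered 1 to 3, and members called lower 2 to 4, against 5 (6 with the DESeq2 Wald test and 6 with copies added). The inducible to constitutive log2 ratio differed by 0.22 between diets from summed counts per length, against 0.28. A filter at 5 CPM raised log2 changes by a median of 0.051, and it turned the sign of uncalled changes to 0.02 in Psma6, 0.00 in Psma7, 0.01 in Psmb2, 0.04 in Psmb5, 0.03 in Psmb10, 0.03 in Psmc4, 0.02 in Psmd3, 0.03 in Psmd4, 0.00 in Psmd11, 0.01 in Psmd9 and 0.00 in Psme2. Psmb5 stood at 0.00 with DESeq2's size factors and with its Wald test and at 0.01 with counts divided by 4, and Psme2 at 0.00 with copies added. Leaving out a library gave log2 changes of both signs or 0.00 in uncalled members, from -0.08 to 0.03 in Psmb10, -0.17 to 0.08 in Psmb2, -0.04 to 0.08 in Psmb4, -0.12 to 0.11 in Psmb5, 0.00 to 0.11 in Psmb7, -0.05 to 0.01 in Psmc4, -0.13 to 0.03 in Psmd11, -0.07 to 0.15 in Psmd13, -0.08 to 0.03 in Psmd4, 0.00 to 0.03 in Psmd5, -0.23 to 0.18 in Psmd9, -0.18 to 0.07 in Psme2, 0.00 to 0.02 in Psme4 and -0.38 to 0.14 in Psmg3. The cause was not tested. With a replicate block 4 members were higher and 5 lower, the same genes as without it. The deviations of same-numbered libraries of the diets had a correlation of 0.00211. With 2 libraries per diet this sets 1 replicate difference against another, so it cannot show whether the numbers pair libraries. The spread of a diet left with 1 library was taken from the other diet. Depth limits Psma8 and Psmb11.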
